A study of Mus musculus with 31 samples.

Results

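A set of 10 genes for secreted acute-phase proteins were followed in the livers of 31 mice. These were the serum amyloid A genes *Saa1*, *Saa2* and *Saa3*, the haptoglobin gene *Hp*, the orosomucoid genes *Orm1* and *Orm2*, the lipocalin-2 gene *Lcn2*, the serum amyloid P gene *Apcs*, the hemopexin gene *Hpx* and the inter-alpha-trypsin inhibitor gene *Itih4*. All 10 were found by symbol among the 31172 genes measured in every mouse. The levels are TPM (the authors' transcript abundance unit, scaled to a fixed total per library), the unit of the deposited values.

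All animals were hFIX-R29X mice, which carry a human factor IX transgene with a premature stop codon, driven by the human transthyretin promoter, and lack the mouse *F9* gene. Antisense oligonucleotides (ASOs) joined to GalNAc, a sugar ligand of the asialoglycoprotein receptor on hepatocytes, were injected under the skin to lower *Upf3b*, a factor of nonsense-mediated mRNA decay (NMD), and a scrambled ASO served as the control. Each mouse, aged 8 to 14 weeks, was dosed 6 times at intervals of 5 days, and its liver was collected 48 h after the final injection. The 5 groups were DPBS (saline vehicle, 6 females and 5 males), Control-GalNAc-ASO at 15 mg/kg (2 females and 2 males) and at 20 mg/kg (3 of each), and Upf3b-GalNAc-ASO at 10 mg/kg and at 20 mg/kg (2 females and 3 males each). The labels describe the doses as weekly in one field and as 5 days apart in another.

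Acute-phase proteins are made mainly by hepatocytes and secreted into the plasma, where their concentration shifts during infection, injury or other inflammation. Interleukin-6 acting through STAT3, and interleukin-1 acting through NF-kB and C/EBP factors, are the best known inducers of their genes. Serum amyloid A genes respond most steeply in mice, while haptoglobin and hemopexin, which bind free hemoglobin and heme, are abundant in plasma at rest.

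The libraries held between 1012526 and 7334110 reads per mouse (median 3597929), as recovered from the steps in the TPM values, so 3 reads stood for 0.406 to 2.94 TPM. Targeted *Upf3b* ranged from 33.8 to 136 TPM in DPBS mice and from 2.57 to 16.7 TPM in mice given 20 mg/kg of Upf3b-GalNAc-ASO. It was lower there than in mice given 20 mg/kg of control ASO (log2 fold change −3.87 ± 0.40 SE, limma adjusted p = 1.59e-05). At the lower dose its range was 3.95 to 53.7 TPM against 27.1 to 78.7 TPM in the 15 mg/kg control group, and that difference did not pass the test (−1.73 ± 0.61, limma adjusted p = 0.211). One male given 20 mg/kg of Upf3b-GalNAc-ASO, replicate 2, stood apart from all other mice in most of these genes, and one male given 20 mg/kg of control ASO, replicate 6, stood apart in a few. For *Saa1*, *Saa2*, *Hp* and *Hpx*, several differences are also given with mice left out. All other values include both mice and can depend on them. All 6 hepatocyte markers were detected, with a summed level of 12152 to 34418 TPM. In whole liver, a change in the number of cells of a type and a change in RNA per cell cannot be told apart.

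At rest the genes spanned several orders of magnitude. *Hp* had the highest level in DPBS mice (2633 ± 649 TPM, SD, n = 11), followed by *Hpx* (952 ± 324 TPM). *Itih4* (365 ± 153 TPM) and *Orm1* (337 ± 102 TPM) came next and lay within each other's spread. *Saa1* (29.6 ± 13.5 TPM), *Saa2* (29.5 ± 24.2 TPM) and *Apcs* (28.6 ± 20.7 TPM) did not differ beyond their spread either. *Orm2* (5.62 ± 5.33 TPM), *Saa3* (1.85 ± 1.65 TPM) and *Lcn2* (0.923 ± 0.950 TPM) were lowest. *Lcn2* was below 3 reads in 17 of the 31 mice and at 0 in 10, so its level in most animals was at the limit of the depth. This order is that of the DPBS mice. At 20 mg/kg of Upf3b-GalNAc-ASO the mean of *Saa2* was 2608 TPM and that of *Hpx* 2172 TPM, but replicate 2 set the *Saa2* mean. The other mice of that group had means of 52.3 TPM for *Saa2* and 1648 TPM for *Hpx*.

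**Figure D1:**
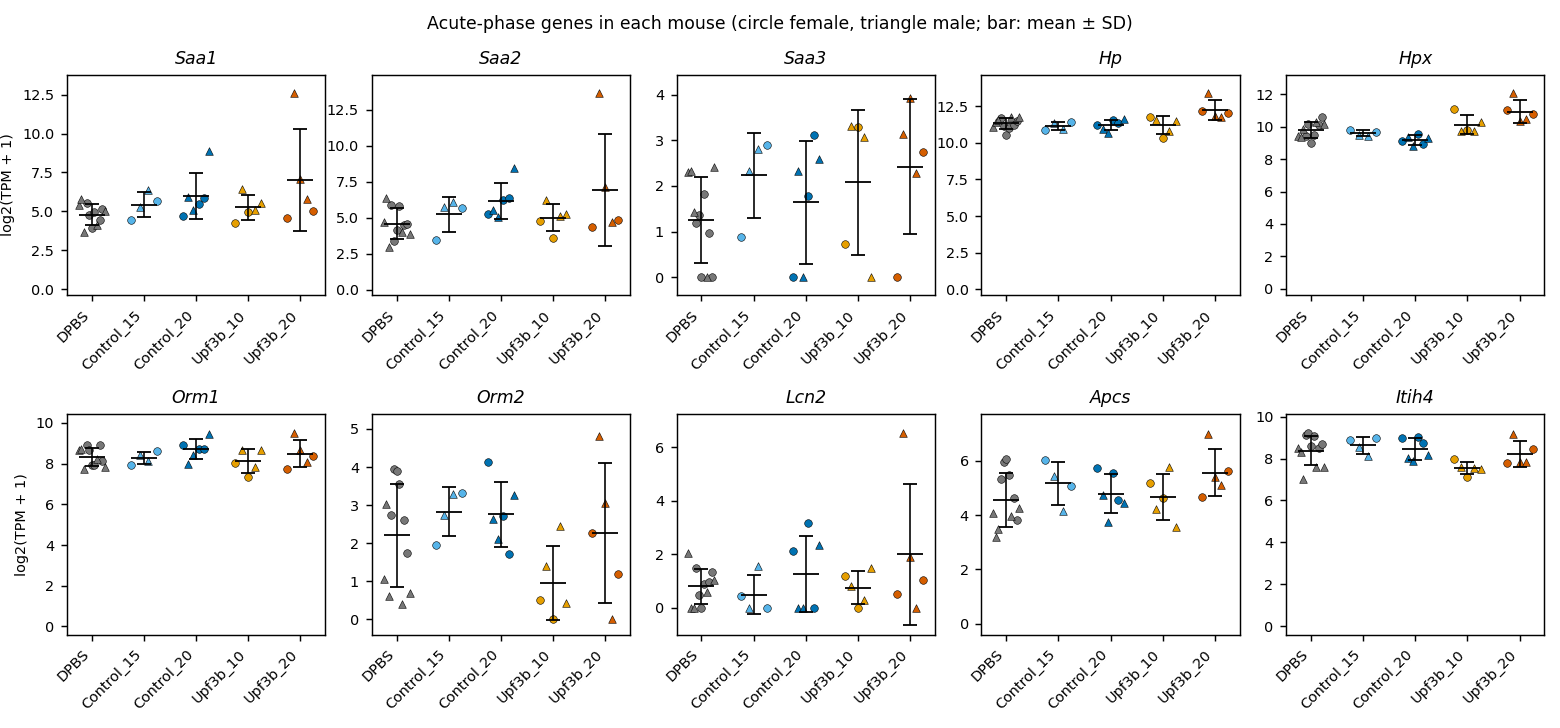
TPM of the 10 acute-phase protein genes in each of the 31 mice by treatment group, each panel a gene with its own axis of log2(TPM + 1), circles for females, triangles for males, and bars for the mean ± SD. Control_15 and Control_20 are the control ASO at 15 and 20 mg/kg, and Upf3b_10 and Upf3b_20 the Upf3b-GalNAc-ASO at 10 and 20 mg/kg. Replicate 2 of the Upf3b-GalNAc-ASO 20 mg/kg group lies far above its group in *Saa1* (6181 TPM), *Saa2* (12829 TPM) and *Lcn2* (90.6 TPM), while *Hpx* is higher in all 5 mice of that group than in the control group at 20 mg/kg.

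Serum amyloid A proteins ride on high-density lipoprotein and are the classic inducible acute-phase proteins of the mouse. *Saa1* lies at chr7:46740497-46742980 on the minus strand and *Saa2* at chr7:46751790-46754313 on the plus strand of GRCm38, with 4 exons each, and *Saa3* lies beside them at chr7:46711998-46715700 on the minus strand. The *Saa1* and *Saa2* transcripts share 26.8% and 21.9% of their 31-base windows, so reads could be divided between these genes in either direction, and their values are best read as a pair. The 250 bases before the RefSeq start site (GRCm38.p6) are shown for both because the genes also share this sequence: in windows of 300 bases around the start, 95.4% of aligned positions were identical, with 12 mismatches and 2 gapped positions, against 54.2% between *Saa1* and *Saa3*. Capitals mark a match to the C/EBP motif TTGCNNAA, searched on both strands. The windows are chr7:46742981-46743230 on the minus strand and chr7:46751583-46751832 on the plus strand.
Saa1: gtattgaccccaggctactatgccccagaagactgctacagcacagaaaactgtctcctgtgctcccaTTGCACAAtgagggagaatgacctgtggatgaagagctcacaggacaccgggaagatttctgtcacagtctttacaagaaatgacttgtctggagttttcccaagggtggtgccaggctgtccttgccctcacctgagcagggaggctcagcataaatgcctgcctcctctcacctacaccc
Saa2: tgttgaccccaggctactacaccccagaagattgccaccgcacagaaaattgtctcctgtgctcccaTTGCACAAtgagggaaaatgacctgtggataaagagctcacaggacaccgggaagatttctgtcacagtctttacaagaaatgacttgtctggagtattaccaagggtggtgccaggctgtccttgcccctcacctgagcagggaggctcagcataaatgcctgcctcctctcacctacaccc
The match TTGCACAA begins at position −182 from the start site in *Saa1* and at −183 in *Saa2*.

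RefSeq promoter windows were found for 8 of the 10 genes and not for *Hp* and *Orm1*. The C/EBP motif was present in 6 of the 8 (*Hpx*, *Lcn2*, *Orm2*, *Saa1*, *Saa2* and *Saa3*), or 75%, against 10.8% of all 32851 promoter windows in the table. The STAT motif TTCNNNGAA was in 2 of the 8 (*Apcs* and *Itih4*), or 25%, against 8.30% of all windows. The interleukin-6 response element core CTGGGAA was in *Apcs* only, against 11.1% of all windows, and the NF-kB-type motif GGNNTTTCC was in *Saa3* only, against 5.82%. No window of the 8 held the HNF1 motif TTAATNATT, which 1.47% of all windows hold. Letters alone do not show that a factor binds there. The windows of *Hpx* (chr7:105600117-105600366, minus strand) and *Itih4* (chr14:30886226-30886475, plus strand) are shown because these genes differed most clearly between treatment groups or sexes, with the C/EBP match in *Hpx* and the STAT match in *Itih4* in capitals.
Hpx: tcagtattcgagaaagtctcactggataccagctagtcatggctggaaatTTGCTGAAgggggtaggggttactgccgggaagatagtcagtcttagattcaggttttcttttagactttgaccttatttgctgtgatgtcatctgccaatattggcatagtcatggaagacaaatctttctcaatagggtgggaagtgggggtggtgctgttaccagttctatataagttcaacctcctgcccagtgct
Itih4: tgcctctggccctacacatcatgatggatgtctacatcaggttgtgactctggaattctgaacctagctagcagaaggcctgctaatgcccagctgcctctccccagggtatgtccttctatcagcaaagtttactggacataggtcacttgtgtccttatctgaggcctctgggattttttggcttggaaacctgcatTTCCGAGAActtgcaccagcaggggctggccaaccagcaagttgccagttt
The match in *Hpx* is TTGCTGAA, beginning at position −200, and that in *Itih4* is TTCCGAGAA, beginning at −51.

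To ask what the Upf3b-GalNAc-ASO did to these genes at 20 mg/kg, its 5 mice were compared with the 6 mice given the same dose of control ASO. Hemopexin, the plasma scavenger of free heme, was the one gene of the 9 tested that rose (adjusted p under 0.05 over 9376 genes). Across all genes tested, 2.52% passed this test. *Hpx* (chr7:105591613-105600137, minus strand, 10 exons) measured 2092, 4271, 1285, 1440 and 1774 TPM in the 5 Upf3b-GalNAc-ASO mice. It measured 552, 664, 452, 760, 485 and 639 TPM in the 6 control mice. All 5 treated mice were above all 6 controls. The difference was 3.37-fold on the log2(TPM + 1) scale (log2 fold change 1.75 ± 0.29 SE, limma adjusted p = 0.00217). Without replicate 2 it was 1.47 (limma adjusted p = 0.000814), and with any 1 mouse removed it lay from 1.47 to 1.91.

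Haptoglobin, which binds free hemoglobin, followed the same order without passing the test. *Hp* (chr8:109575128-109579172, minus strand, 5 exons) measured 4542, 10681, 3598, 3460 and 4127 TPM in the Upf3b-GalNAc-ASO mice at 20 mg/kg. The control mice measured 2356, 1931, 1648, 2976, 2552 and 3111 TPM. Again no control mouse reached the lowest treated mouse. The log2 fold change was 1.02 ± 0.28 SE (limma adjusted p = 0.0578), and it was 0.72 without replicate 2 (adjusted p = 0.0619 in limma). With both high-*Saa1* males left out, the adjusted p for *Hp* was 0.0236 in limma at a log2 fold change of 0.84. *Hp* and *Hpx* were the 2 of 9 genes whose groups did not overlap, against 3.48% of all genes tested. They were also the 2 that met the study's cutoffs (a change of 2-fold or more with an unadjusted p no higher than 0.01), which 6.23% of all genes met. These cutoffs, called the study's rule below, were applied here to the limma values. The study took its p from a negative binomial model, aggregated over replicates, and that model was not rerun.

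The other 7 genes tested at this dose gave no call. *Itih4* had a log2 fold change of −0.20 ± 0.30 SE, *Orm1* of −0.25 ± 0.31, *Orm2* of −0.52 ± 0.75 and *Apcs* of 0.79 ± 0.43 (limma adjusted p of 0.75, 0.705, 0.746 and 0.330). The differences of *Saa1* (0.79 ± 1.31) and *Saa2* (0.59 ± 1.63) had the widest errors, with limma adjusted p of 0.793 and 0.885. Their direction depended on single mice: without replicate 2 the log2 fold changes were −0.37 for *Saa1* and −0.90 for *Saa2*. With both high-*Saa1* males left out, *Saa2* was at −0.46 and *Saa1* stayed positive. *Saa3* measured 0, 7.87, 14.3, 3.91 and 5.75 TPM against 0, 4.06, 0, 2.44, 7.72 and 5.00 TPM in the controls (0.71 ± 0.79, limma adjusted p = 0.668), so 3 mice were at 0. The median log2 fold change over the 9 genes was 0.71, against −0.12 over all genes tested. That median is the value of *Saa3*, whose level reached the 5 TPM filter through the treated group only, so it is given as a description.

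The summed level of 4 endothelial markers, led by *Pecam1*, ranged from 1504 to 2192 TPM in the Upf3b-GalNAc-ASO mice and from 558 to 1627 TPM in the controls. These ranges overlap, and DPBS mice spanned 583 to 2373 TPM. Neither this difference nor its part in the *Hpx* and *Hp* differences was tested. The plot of fold changes sets the ASO comparisons side by side.

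**Figure D2:**
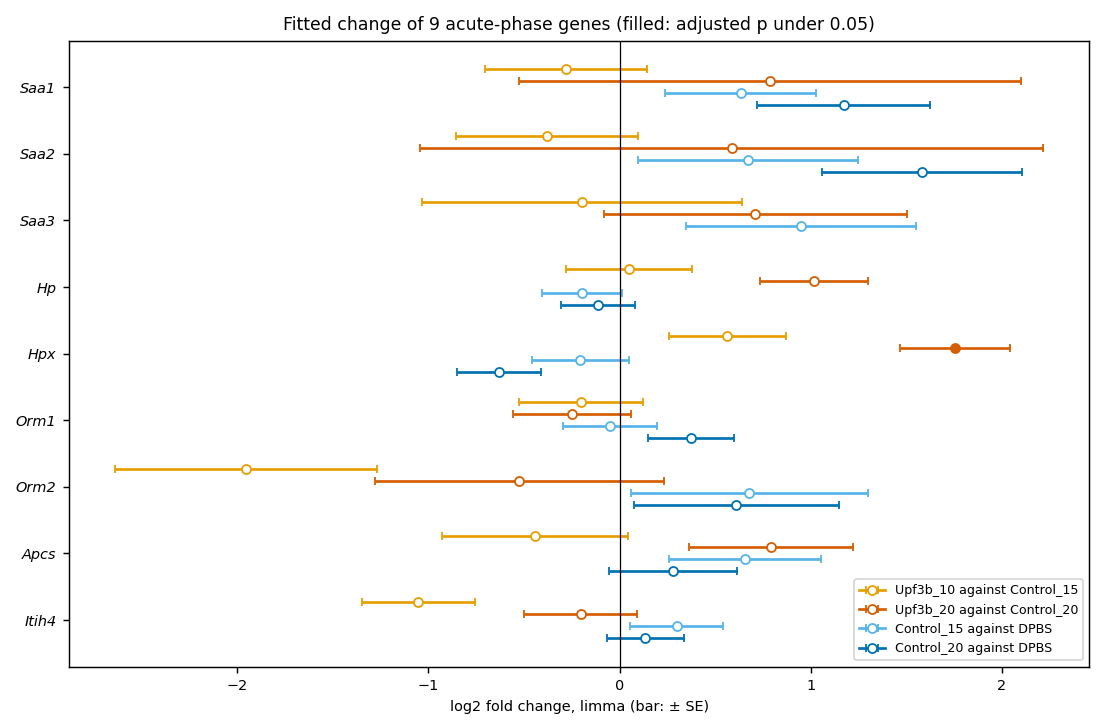
Log2 fold changes on the log2(TPM + 1) scale with SE bars for 9 acute-phase protein genes, from the limma fits of each Upf3b-GalNAc-ASO dose (Upf3b_10 and Upf3b_20, in mg/kg) against its control ASO and of each control ASO dose against DPBS. A filled point passed an adjusted p of 0.05. *Hpx* at 20 mg/kg of Upf3b-GalNAc-ASO against the same dose of control ASO (1.75 ± 0.29) is the one filled point, and the bars of *Saa1* and *Saa2* there span 0.

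At the lower dose, 5 mice given 10 mg/kg of Upf3b-GalNAc-ASO were set against 4 mice given 15 mg/kg of control ASO. The 2 doses differ, so agent and dose cannot be told apart. None of the 9 genes tested passed an adjusted p of 0.05 in limma, and 0.295% of 9166 genes did. At an unadjusted p under 0.05 there were 2, against 15.8% of all genes. *Itih4*, whose product is a plasma protein cleaved during the acute phase, showed the clearest separation (chr14:30886476-30902353, plus strand, 23 exons). It measured 252, 192, 139, 187 and 178 TPM in the Upf3b-GalNAc-ASO mice and 469, 375, 273 and 508 TPM in the controls. All 5 treated mice were below all 4 controls, with a log2 fold change of −1.05 ± 0.30 SE (limma adjusted p = 0.128, exact two-sided permutation p = 0.00794, the smallest that 126 arrangements allow). The permutation p is unadjusted, from 1 of 70 such tests, and takes no account of sex. It follows from the separation of the groups and adds no separate support. Without replicate 1 of the treated group, *Itih4* passed (−1.15, limma adjusted p = 0.0468), in a fit where the number of genes called went from 27 of 9166 to 431 of 9254. Leaving out other single mice gave from 2 to 91 genes called in this comparison. It was the 1 of 9 genes whose groups did not overlap, against 4.81% of all genes, and the 1 that met the study's rule, which a like 4.81% met.

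*Orm2* was the other gene at an unadjusted p under 0.05 in that comparison. Orosomucoids are acid glycoproteins that carry drugs and lipids in plasma, and *Orm1* (chr4:63344560-63348163) and *Orm2* (chr4:63362449-63365878), both on the plus strand with 6 exons, share 68.5% of the 31-base windows of the last 300 bases of their transcripts. Their values are therefore uncertain as separate genes. *Orm2* measured 0.422, 1.62, 0, 4.48 and 0.336 TPM in the Upf3b-GalNAc-ASO mice at 10 mg/kg and 2.84, 5.71, 8.80 and 9.02 TPM in the controls. The groups overlapped at 1 mouse (log2 fold change −1.95 ± 0.68 SE, limma adjusted p = 0.206). Only the control median reached the 5 TPM filter, so *Orm2* entered this test through the group where it was higher. *Orm1*, far more abundant, measured 263, 411, 162, 230 and 411 TPM against 244, 341, 281 and 398 TPM, and its log2 fold change was −0.20 ± 0.32 (limma adjusted p = 0.796). *Hpx* gave 0.56 ± 0.31 (limma adjusted p = 0.380) and *Hp* 0.05 ± 0.33 (0.960) at this dose. The median log2 fold change over the 9 genes was −0.28, against −0.03 over all genes.

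None of the serum amyloid A genes separated the groups at the lower doses. *Saa1* measured 17.9, 87.3, 30.1, 32.8 and 45.1 TPM in the Upf3b-GalNAc-ASO mice at 10 mg/kg and 21, 38.0, 80.8 and 49.6 TPM in the control ASO mice at 15 mg/kg. *Saa2* measured 26.3, 71.9, 11, 34.3 and 37.1 TPM against 9.89, 51.2, 67.2 and 50.5 TPM. The groups overlapped in both genes, with log2 fold changes of −0.28 ± 0.42 SE and −0.38 ± 0.48 (limma adjusted p of 0.775 and 0.720). *Saa3* measured 0.650, 8.96, 8.82, 7.38 and 0 TPM against 0.853, 4.05, 6.06 and 6.52 TPM (−0.20 ± 0.84, limma adjusted p = 0.935). *Apcs* measured 35.7, 17.7, 23.5, 53.4 and 10.8 TPM against 65.1, 42.0, 16.8 and 32.3 TPM (−0.44 ± 0.49, limma adjusted p = 0.674).

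Whether the Upf3b-GalNAc-ASO effects differed between the 2 doses was tested as a difference of differences. No gene passed an adjusted p of 0.05 in limma, 0% of the 9797 tested, while 799 had an unadjusted p under 0.05. *Hpx* gave 1.23 ± 0.43 SE on the log2 scale (limma adjusted p = 0.455) and was the 1 of 9 to meet the study's rule, which 2.04% of all genes met. Of the 9 acute-phase genes, 2 had an unadjusted p under 0.05, against 8.16% of all genes. *Hp* was the other, at 0.95 ± 0.44 (limma adjusted p = 0.589). With any 1 mouse left out, *Hpx* lay from 0.92 to 1.47 and *Hp* from 0.65 to 1.12. *Apcs* gave 1.27 ± 0.66, *Itih4* 0.83 ± 0.42, *Orm2* 1.38 ± 1.03 and *Orm1* −0.06 ± 0.46. *Saa1* (1.21 ± 1.51), *Saa2* (1.02 ± 1.84) and *Saa3* (0.95 ± 1.1) had errors larger than their values, and the limma adjusted p of these 7 ran from 0.626 to 0.984.

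The same treated mice were also compared with the 11 DPBS mice. At 20 mg/kg, *Hpx* was 2.2-fold higher than in DPBS mice (log2 fold change 1.12 ± 0.28 SE, limma adjusted p = 0.0526), with DPBS mice ranging from 508 to 1572 TPM around a median of 946. The treated range of 1285 to 4271 TPM overlapped it. *Hp* gave 0.86 ± 0.24 (limma adjusted p = 0.0948), with DPBS mice from 1445 to 3479 TPM around a median of 2746. In limma 4 of 9 acute-phase genes had an unadjusted p under 0.05, against 11.9% of all genes. No acute-phase gene passed the adjusted test, in which 1.13% of 9078 genes passed. By the unadjusted rule of the study 1 of 9 did, *Hpx*, against 3.35% of all genes. *Hpx* passed the adjusted test under several other settings, among them a fit without sex, and its log2 fold change was 0.85 without replicate 2. *Saa1* (2.05 ± 0.92), *Saa2* (2.22 ± 1.23), *Saa3* (1.01 ± 0.60), *Apcs* (1.10 ± 0.44), *Orm1* (0.13 ± 0.27), *Orm2* (0.21 ± 0.72) and *Itih4* (−0.06 ± 0.29) gave limma adjusted p from 0.284 to 0.965 at 20 mg/kg, and without replicate 2 the values of *Saa1* and *Saa2* were 0.80 and 0.67. At 10 mg/kg none of 9 passed in limma, against 0.376% of 9032 genes. At an unadjusted p under 0.05 there was 1, against 8.27% of all genes. *Itih4* had a log2 fold change of −0.72 ± 0.27 there (limma adjusted p = 0.485). The others were *Orm2* (−1.11 ± 0.64), *Orm1* (−0.23 ± 0.28), *Hp* (−0.17 ± 0.25), *Apcs* (0.26 ± 0.42), *Hpx* (0.33 ± 0.28), *Saa1* (0.41 ± 0.39), *Saa2* (0.41 ± 0.51) and *Saa3* (0.74 ± 0.64), with limma adjusted p from 0.640 to 0.873.

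The control ASO itself was compared with DPBS at each dose. At 15 mg/kg none of 9 acute-phase genes and 0% of 8971 genes passed in limma, with 644 genes at an unadjusted p under 0.05, none of them an acute-phase gene described here. The log2 fold changes there were 0.63 ± 0.39 SE for *Saa1*, 0.67 ± 0.57 for *Saa2*, 0.95 ± 0.60 for *Saa3*, 0.68 ± 0.62 for *Orm2* and 0.65 ± 0.40 for *Apcs*. *Itih4* gave 0.30 ± 0.24, *Orm1* −0.05 ± 0.25, *Hp* −0.19 ± 0.21 and *Hpx* −0.20 ± 0.25, and the limma adjusted p of these 9 ran from 0.729 to 0.971. At 20 mg/kg none of 8 acute-phase genes and 0% of 9140 genes passed in limma, with 905 genes at an unadjusted p under 0.05, among them *Saa1*, *Saa2* and *Hpx*. *Saa2* was the 1 of 8 to meet the study's rule (log2 fold change 1.58 ± 0.52 SE, limma adjusted p = 0.412), which 1.26% of all genes met. It measured 37.7, 44.4, 31.3, 72.4, 82.1 and 349.3 TPM in the control ASO mice, against 6.59 to 82.3 TPM (median 21.3) in DPBS mice. *Saa1* measured 25.1, 60.7, 32.9, 42.9, 57.3 and 469.8 TPM, against 11.9 to 55 TPM (median 29.6). In both genes the last value, replicate 6, lay far above the rest. Without it the log2 fold changes were 1.09 for *Saa2* and 0.62 for *Saa1*. *Hpx* went the other way, with a log2 fold change of −0.63 ± 0.22 (limma adjusted p = 0.423). *Hp* (−0.11 ± 0.19), *Orm1* (0.37 ± 0.23), *Orm2* (0.61 ± 0.54), *Apcs* (0.28 ± 0.33) and *Itih4* (0.13 ± 0.20) gave limma adjusted p from 0.587 to 0.855, and *Saa3* was below the filter. For *Hpx*, of the 6 control mice, 2 were below every DPBS mouse. The same control mice are the base of the *Hpx* difference given above.

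One animal carried most of the signal of the inducible genes. In replicate 2 of the Upf3b-GalNAc-ASO 20 mg/kg group, *Saa1* measured 6181 TPM (32195 reads), against 23.2, 132.8, 55.2 and 30.8 TPM in the other 4 mice of the group. *Saa2* measured 12829 TPM (66820 reads), against 19.2, 138.4, 24.4 and 27.1 TPM. These are 102-fold and 245-fold the mean of those 4 mice. *Saa2* was the 5th most abundant gene of that liver. Summed, *Saa1* and *Saa2* reached 19010 TPM there and ranged from 18.5 to 819 TPM (median 66.5) in the other 30 mice. They made up 1.92% of its TPM, against at most 0.0825% in each of the other 30 mice. The ratio of *Saa2* to *Saa1* was 2.08 in this mouse, against 0.364 to 1.83 in the others.

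*Lcn2*, which encodes a protein that binds bacterial siderophores (chr2:32384633-32388252, minus strand, 6 exons), measured 90.6 TPM (472 reads) in the same mouse. The other 4 mice of its group measured 0.426, 2.76, 0 and 1.03 TPM, and the highest value in any other group was 7.88 TPM. *Lcn2* was too low for the fit across all genes. In exact two-sided permutation tests of log2(TPM + 1) over 7 comparisons its p ranged from 0.153 to 0.902 (0.894 to 0.902 adjusted over the 7).

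*Apcs*, a pentraxin that binds amyloid fibrils (chr1:172893961-172895041, minus strand, 2 exons), measured 124.6 TPM in replicate 2, against 24.5, 41.4, 33.7 and 48.8 TPM in the rest of the group. *Orm2* was 8.76-fold, *Hp* 2.72-fold, *Hpx* 2.59-fold, *Orm1* 2.33-fold and *Itih4* 2.26-fold the mean of the other 4. In all, 8 of the 10 genes were above every other mouse of the study, the exceptions being *Itih4* and *Saa3*. Of 9463 genes ranked, 6.20% were above every other mouse. *Saa3*, which is made largely outside hepatocytes, measured 7.87 TPM there, against 0, 14.3, 3.91 and 5.75 TPM in its group.

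Other genes of the acute-phase response were read in the same mouse from lists of 21 further positive acute-phase genes, 6 negative ones and 23 of the cytokine pathway. Of the 21 positive genes, 6 were above every other mouse: the metallothioneins *Mt1* (3867 TPM, 373-fold the mean of the other 4 mice of its group) and *Mt2* (20803 TPM, 561-fold), *Lrg1* (2127 TPM, 17.2-fold), *Serpina3n* (1031 TPM, 4.95-fold), *Itih3* (3.34-fold) and *Fgl1* (3.13-fold). *Saa4* (0.274-fold), *Hamp* (0.256-fold) and *Crp* (0.541-fold) were below that mean. Of the negative genes, *Serpina6*, for corticosteroid-binding globulin, was below all other mice (8.45 TPM, 0.0845-fold), and *Alb*, for albumin, was 0.537-fold. *Ahsg*, for fetuin-A, went the other way and was above all other mice (6690 TPM, 2.52-fold), and *Ttr* was 0.931-fold, *Rbp4* 0.744-fold and *Apoa1* 0.694-fold. Of the 23 cytokine pathway genes, 4 were above every other mouse: *Cebpb* (3.92-fold), *Cebpd* (5.59-fold), *Nfkbia* (2.49-fold) and *Il1r1* (2.65-fold). Within its own group, 6 of the list were above and 6 below the other 4 mice. *Lifr* (30 TPM, 0.230-fold) and *Il6st* (20.9 TPM, 0.430-fold) were below every other mouse of the study, and *Jak2* (0.258-fold), *Il1rap* (0.362-fold) and *Cebpa* (0.423-fold) were below that mean too. *Il6*, *Il1b* and *Tnf* were listed at 0 in this mouse. Over the 9463 genes ranked, its median log2 difference from the other 4 mice was −0.34. Ratios modestly under the group mean were thus common in this mouse. Of the genes ranked, 6.20% were above every other mouse. The shares of all genes below every other mouse, or above or below the rest of its group, were not computed. The genes named or counted in those ways are therefore a description only.

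The summed level of neutrophil markers, cells that hold much *Lcn2*, was 17.9 TPM in replicate 2, the highest of its group (median 3.08 TPM). It lay within the 0 to 110 TPM of the other mice (median 4.32 TPM). Of the 8 markers, 4 were above the rest of its group, *Retnlg* also above every other mouse, and 4 were at 0. The macrophage sum was 328.5 TPM, the lowest of its group and within the 215 to 843 TPM of the other mice. The cholangiocyte sum of 197.8 TPM was above the 3.21 to 28.7 TPM of the others, almost all of it *Sox9* (180.5 TPM) with *Epcam* at 0, and the adipocyte sum of 165.7 TPM was above their 8.82 to 48.8 TPM with *Adipoq* and *Plin1* at 0. The part of these cells in the high values was not tested.

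**Figure D3:**
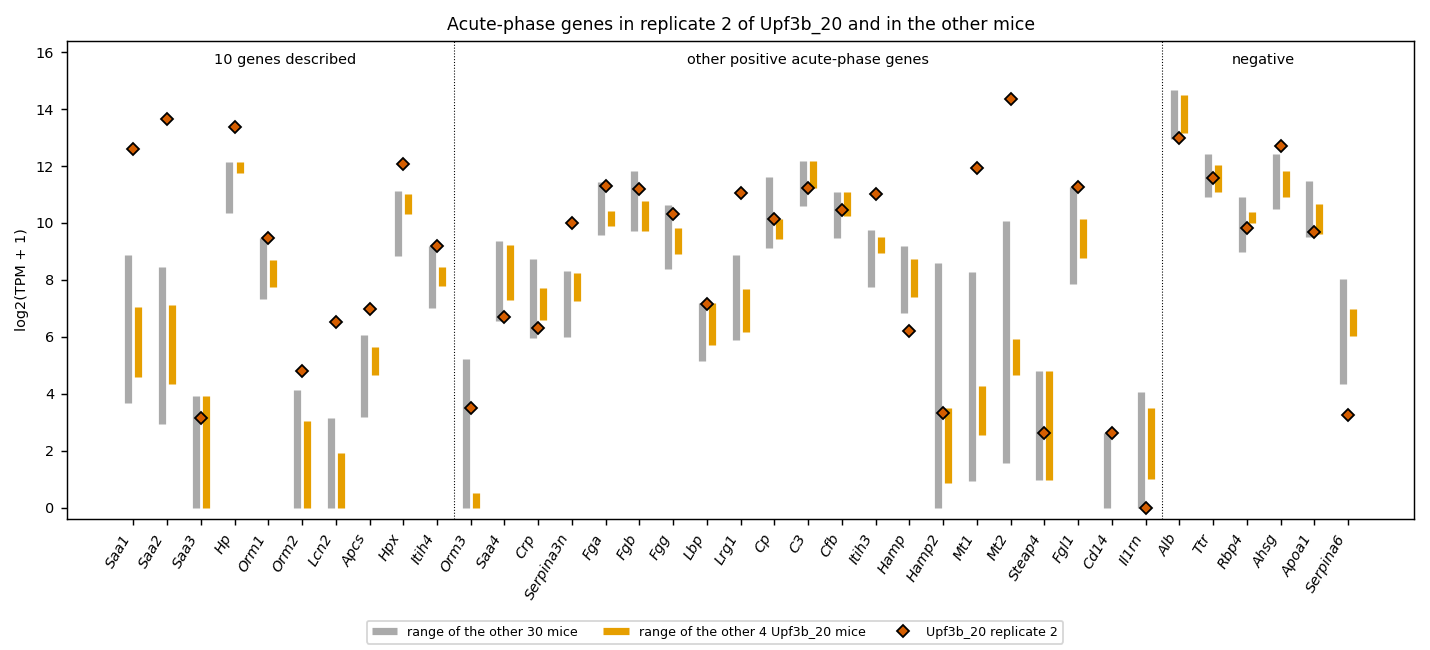
Levels on a log2(TPM + 1) axis of the 10 acute-phase protein genes, the 21 further positive genes and the 6 negative genes: the diamond is replicate 2 of the Upf3b-GalNAc-ASO 20 mg/kg group (Upf3b_20), the orange bar the range of the other 4 mice of that group and the grey bar the range of the other 30 mice. *Saa1*, *Saa2* and *Lcn2* are 102-fold, 245-fold and 86.0-fold the mean of the other 4 mice, while *Saa3* is 1.32-fold.

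A smaller departure was seen in replicate 6 of the control ASO group at 20 mg/kg. There *Saa1* was 10.7-fold, *Saa2* 6.52-fold, *Orm1* 1.84-fold and *Hp* 1.36-fold the mean of the other 5 mice. These 4 genes were above the rest of the group. The share of all genes above the rest of the group was not computed, so that count is a description only. None of the 10 acute-phase genes was above every other mouse of the study, against 3.47% of the 9658 genes ranked for this mouse. *Lcn2* measured 4.06 TPM, within its group, and *Apcs* measured 20.6 TPM. The summed neutrophil markers came to 1.88 TPM.

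Sex was compared within the 11 DPBS mice. None of 8 acute-phase genes passed an adjusted p of 0.05 in limma, and 1.41% of 8998 genes did. At an unadjusted p under 0.05 there were 3, against 9.86% of all genes. By the study's rule 3 of the 8 differed, all lower in males, against 2.91% of all genes. *Itih4* ranged from 366 to 585 TPM in the 6 females (473 ± 94.2, SD) and from 129 to 356 TPM in the 5 males (236 ± 95.1). The sexes did not overlap, and the log2 fold change was −1.07 ± 0.27 SE (limma adjusted p = 0.0528). *Apcs* was 41.2 ± 20.7 TPM in females and 13.5 ± 4.20 TPM in males (log2 fold change −1.41 ± 0.42, limma adjusted p = 0.152). *Orm2* was 8.69 ± 5.00 TPM in females and 1.93 ± 2.90 TPM in males (−1.93 ± 0.64, limma adjusted p = 0.243). Only the female median reached the 5 TPM filter. *Orm2* thus entered the test through the sex where it was higher, and its place among the 3 adds no separate support. *Hp* gave 0.35 ± 0.22, *Saa1* 0.02 ± 0.41, *Saa2* −0.32 ± 0.56, *Orm1* −0.17 ± 0.27 and *Hpx* 0.02 ± 0.28 (limma adjusted p from 0.610 to 0.989), and *Saa3* was below the filter.

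The sex difference of *Itih4* was seen again in the control ASO mice. At 20 mg/kg the 3 females measured 420 to 527 TPM and the 3 males 231 to 290 TPM, and at 15 mg/kg the females measured 469 and 508 TPM against 375 and 273 TPM in males. In the Upf3b-GalNAc-ASO mice the sexes overlapped. At 10 mg/kg the females measured 252 and 139 TPM and the males 178 to 192 TPM, and at 20 mg/kg the females measured 221 and 352 TPM and the males 228, 225 and 578 TPM. A difference of the sex effect between treatments was not tested.

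**Figure D4:**
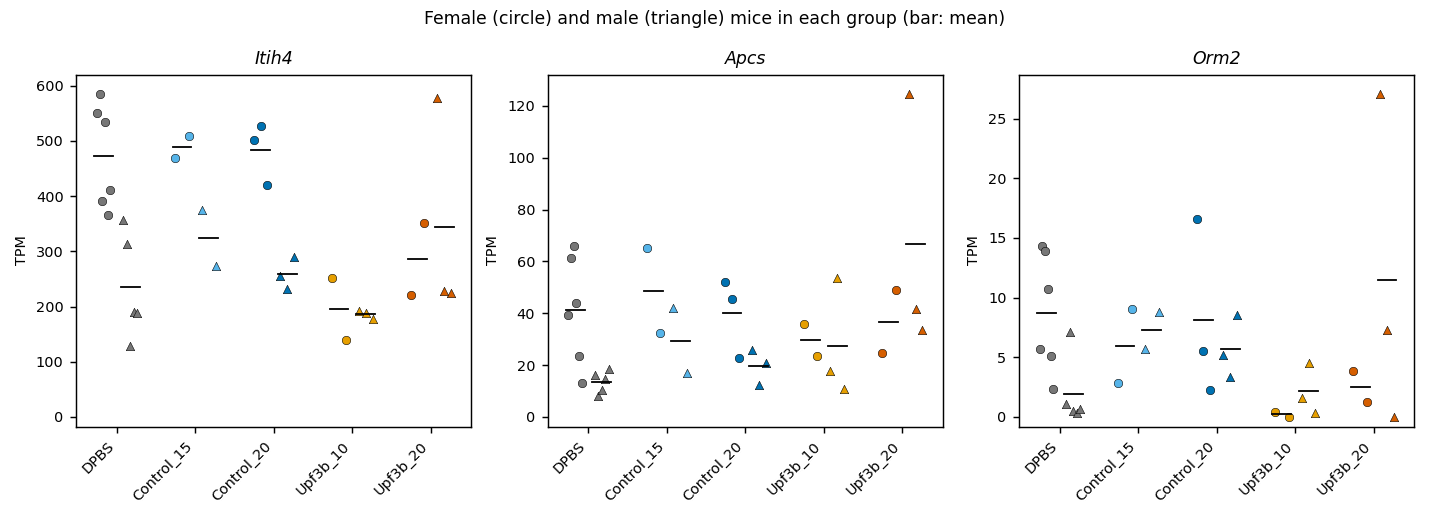
TPM of *Itih4*, *Apcs* and *Orm2* on linear axes by sex in each treatment group, with a circle per female, a triangle per male and a bar at the mean. *Itih4* is higher in every female than in every male of the DPBS group (366 to 585 against 129 to 356 TPM), and the sexes overlap in both Upf3b-GalNAc-ASO groups.

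Across mice, the genes that moved most alike were read from Pearson correlations of log2(TPM + 1), which are given as a description. After subtracting group means, *Saa1* and *Saa2* correlated at 0.934 over 31 mice and at 0.863 over the 30 mice without replicate 2. *Hp* and *Hpx* correlated at 0.691 (0.601 without that mouse), and *Apcs* and *Itih4* at 0.699 (0.664). *Saa1* and *Lcn2* fell from 0.731 to 0.474, and *Saa1* and *Hpx* from 0.273 to −0.08. The mice also differed in sex and depth, which these values include.

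Among 8496 genes, with the 10 acute-phase genes themselves left out of the ranking and group means not subtracted, those most like *Saa1* over the 31 mice were *H3f3b* (r = 0.853), *Krt18* (0.838) and *Tgm2* (0.752), which fell to 0.550, 0.565 and 0.404 without replicate 2. For *Hp* they were *Itih3* (0.874), *Bsg* (0.845) and *Mrap* (0.833), which stayed at 0.791, 0.724 and 0.727. *Serpina3n* (0.695) and *Lrg1* (0.691) led for *Orm1*, at 0.622 and 0.625 without that mouse. The likeness of *Hp* thus moved less with the one animal than that of *Saa1*.

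The wider acute-phase lists gave few calls in the treatment comparisons. Among 18 to 19 further positive acute-phase genes and 6 negative ones tested, none passed an adjusted p of 0.05 in limma in any of the 7 treatment comparisons. An unadjusted p under 0.05 was seen in 0 to 7 of the positive and 0 to 1 of the negative genes. Over all genes, 7.18% to 18.7% had one. Of 16 cytokine pathway genes tested at 20 mg/kg of Upf3b-GalNAc-ASO against control ASO, 1 passed, against 2.52% of all genes. This was *Lifr*, the receptor of leukemia inhibitory factor, which fell (log2 fold change −1.99, limma adjusted p = 0.00515). Against DPBS at that dose 2 of 16 passed, against 1.13% of all genes. Both *Lifr* (−1.69, limma adjusted p = 0.00722) and *Il6ra*, the interleukin-6 receptor (−1.44, limma adjusted p = 0.0408), fell. At the lower dose against its control, 3 of 18 positive genes were up and 15 down in sign. Their median log2 fold change was −0.62, against −0.03 over all genes. The other lists leaned the same way, with 0 of 6 negative genes up and 6 down (median −0.60) and 5 of 17 cytokine pathway genes up and 12 down (median −0.43).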

How the data were processed

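Liver RNA was measured in 31 hFIX-R29X mice, 1 library each. The authors quantified reads with Salmon 0.7.2 (after bcl2fastq 2.17.1.14) against Ensembl mouse cDNA, build GRCm38.p4 in the submitters' processing notes, and deposited TPM values summed per gene. The labels name a QuantSeq 3′ kit and the methods a TruSeq kit, and which was used was not settled. A 3′ kit reads only transcript ends, so comparisons of TPM between genes are approximate. Of 31198 symbols, 26 written as dates were left out. Whole reads were recovered in part from the steps of the low TPM values (69.9% to 81.6% of values per mouse within 0.02 of a whole read) and served only to give depth, so no count model was run.

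Across all genes, limma 3.58.1 (R 4.3.3, trend and robust on) was fitted to log2(TPM + 1) over the mice of the groups compared, with sex as a covariate, keeping genes whose median reached 5 TPM in 1 or more of the groups, with Benjamini-Hochberg adjustment over all genes tested. In some comparisons *Saa3* and *Orm2* reached this median in 1 group alone. A fold change on this scale understates that of low genes. Positive means higher in the first-named group. Single genes were also tested by exact two-sided permutation. Python 3.11.15, numpy 2.4.6, pandas 2.3.3 and scipy 1.17.1 did the rest. The fit was tested on simulated data. No 2 mice had identical values. The genes and lists were chosen with earlier results of these data known. The 10 genes were named in each comparison that tested them, list genes past the threshold were named (at most 4 a direction, by the smallest p), and for likeness the top 3 genes. Alternatives were pseudocounts of 0.5 and 5 TPM, no filter or a median of 20 TPM, no sex term, 1 fit of all 5 groups, upper-quartile scaling, limma without trend and robust, summed near-identical genes, a replicate block, leaving out each mouse, and, chosen after seeing the data, leaving out both high-*Saa1* males. Mice given Upf1-directed ASO were not analysed here.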

Additional observations from a re-analysis of the deposited data

Results flagged for a closer look

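In 10 of 40 groups (gene by treatment group of 4 to 6 mice; DPBS, with 11 mice, was not examined), the highest mouse stood apart from its nearest neighbor by more of the group's range than Dixon's 95% limit. Chance gives about 1 in 20 groups, and the genes are not independent, since 7 of the 10 come from 1 mouse.

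Replicate 2 of the Upf3b-GalNAc-ASO 20 mg/kg group stood apart in *Saa1* (6181 TPM, next 132.8 TPM), *Saa2* (12830 TPM, next 138.4 TPM), *Hp* (10680 TPM, next 4542 TPM), *Orm2* (27.08 TPM, next 7.27 TPM), *Lcn2* (90.62 TPM, next 2.763 TPM), *Apcs* (124.6 TPM, next 48.84 TPM) and *Hpx* (4271 TPM, next 2092 TPM). Replicate 6 of the control ASO 20 mg/kg group stood apart in *Saa1* (469.8 TPM, next 60.7 TPM) and *Saa2* (349.3 TPM, next 82.1 TPM). Replicate 1 of the Upf3b-GalNAc-ASO 10 mg/kg group, a female, stood apart in *Hpx* (2215 TPM, next 1230 TPM). Causes were not tested.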

How the results depend on the processing

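Of 1202 values recomputed under the alternatives, 1146 kept their direction and side of the threshold, 20 reversed and 15 passed only under the alternative; the cause was not tested. The counts of acute-phase genes called moved as follows. At 20 mg/kg of Upf3b-GalNAc-ASO against control ASO (1 called), 2 were called with a pseudocount of 5 TPM, with all groups in 1 fit, without both high-*Saa1* males and by the study's rule. Against DPBS at 20 mg/kg (0 called), 1 was called with a pseudocount of 5 TPM, a median of 20 TPM, no sex term, all groups in 1 fit and the study's rule, and 0 to 1 without each mouse in turn (1 without DPBS replicate 10 or Upf3b-GalNAc-ASO replicates 4 or 5). Upf3b-GalNAc-ASO at 10 mg/kg against control ASO (0 called) gave 1 by the study's rule and 0 to 1 over the mice left out. Control ASO at 20 mg/kg against DPBS and the difference between doses (0 called) gave 1 each by that rule. Males against females (0 called) gave 1 with a pseudocount of 5 TPM or a median of 20 TPM, 3 by that rule and 0 to 1 over the mice left out (1 without DPBS replicates 1 or 10).

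The reversed log2 fold changes were these. At the lower dose against control ASO, *Saa2* ranged from −0.78 to 0.024 over the mice left out (0.024 without control replicate 4), and *Hp* was −0.0089 with upper-quartile scaling, −0.013 with the replicate block and −0.19 to 0.33 over the mice left out. *Saa3* was 0.0090 with a pseudocount of 5 TPM, 0.36 with the replicate block and −0.71 to 0.36 over the mice left out. At 20 mg/kg, *Saa1* ranged from −0.37 to 1.32, *Saa2* from −0.90 to 1.34 (−0.46 without both males), *Orm2* from −1.13 to 0.071 and *Itih4* from −0.49 to 0.025. Against DPBS at 20 mg/kg, *Itih4* ranged from −0.36 to 0.21. Replicate numbers did not pair the mice (mean correlation of same-numbered mice −0.08 to 0.06). With the replicate block, 1 acute-phase gene was called at 20 mg/kg, *Hpx* (1.74, limma adjusted p = 0.0160), and 0 in the other comparisons. Genes called over all genes went from 27 to 104 at the lower dose, from 236 to 43 at 20 mg/kg, and against DPBS from 34 to 9 and from 103 to 42. A floor of 3 reads (0.406 to 2.94 TPM) limits *Lcn2*, *Saa3* and *Orm2*.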

Other observations

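Genes of the wider acute-phase lists differed by sex in DPBS mice. Of 20 further positive acute-phase genes tested, 5 passed an adjusted p of 0.05 in limma, all lower in males, against 1.41% of all genes. They were led by the hepcidin gene *Hamp2* (log2 fold change −5.91, limma adjusted p = 1.49e-05), the metallothionein genes *Mt1* (−3.45, 6.89e-06) and *Mt2* (−4.04, 0.000661) and the fibrinogen-like gene *Fgl1* (−2.18, 0.00011). Of 6 negative acute-phase genes 1 passed, *Alb*, also lower in males (−0.92, limma adjusted p = 0.0208). The median over the 20 was −0.56, against 0.03 over all genes.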
